A study of Caenorhabditis elegans with 6 samples.

Results

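The tubulin genes tba-1, mec-12, tbb-2, mec-7 and ben-1 of Caenorhabditis elegans were examined for RNA enriched by immunoprecipitation of MBL-1. They were chosen because earlier results showed peaks in them, and every peak whose summit lay inside the annotated span of one of these genes was taken. This gave 19 of the 459 summits in the 3 deposited peak lists. Each list sets RNA pulled down by an antibody to FLAG (IP) against RNA of the same replicate number taken before precipitation (RNA input), with 3 IP and 3 RNA input samples in all. All 6 samples, IP and RNA input alike, came from whole L4 larvae of the genotype mbl-1c(syb5299), called a mutant in the sample titles and described in the series as 3xFLAG::MBL-1 animals, and were grown at 20 °C on OP50 bacteria. No IP of untagged animals was analysed here, so enrichment over input was not compared with background binding to the antibody. The lists hold values at called peaks alone, so tissue markers could not be used to check the whole-animal label.

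Microtubules are polymers of alpha- and beta-tubulin heterodimers, and animals carry several genes for each subunit. In C. elegans, tba-1 (alpha) and tbb-2 (beta) are broadly used tubulins, while mec-12 (alpha) and mec-7 (beta) are best known from the touch receptor neurons, mechanosensory cells whose processes are packed with microtubules. ben-1 encodes the beta-tubulin that makes worms sensitive to benzimidazole drugs. MBL-1 is the worm muscleblind protein, a zinc-finger RNA-binding protein known as a regulator of alternative splicing.

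RNA of all 5 tubulin genes was enriched in the IP in at least 2 lists, and that of all but mec-7 in all 3. List 1 held 5 tubulin summits in 4 genes, list 2 held 5 in 5 genes and list 3 held 9 in 5 genes. Since the genes were chosen from these calls, the counts are a description and were not tested. Over all 19983 annotated protein-coding genes, 0.26% had a summit in list 1, 0.325% in list 2 and 0.515% in list 3. A summit in at least 1 list was found for 0.686% of them, in at least 2 lists for 0.285% and in all 3 for 0.13%. Overlapping peaks formed 10 regions, 3 of them in all 3 lists (1 each in tba-1, mec-12 and tbb-2), 3 in 2 lists (1 each in mec-12, mec-7 and ben-1) and 4 in 1 list. Without list 3 there were 10 summits and 3 regions in both remaining lists. With a −log10 q of 5 as the minimum, 5 summits were left, and only tba-1 had one in more than 1 list.

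The libraries were shallow, which limits every value given here. After removal of tags at the same position, IPs 1, 2 and 3 held 39033, 49827 and 41840 tags and RNA inputs 1, 2 and 3 held 36643, 38364 and 30707 tags. Tubulin summits rested on 3 to 26 IP tags, with a median of 8. Intervals given for tag numbers are exact Poisson 95% intervals, and they cover counting error only. Where the local input level given by the peak caller equalled the average coverage of the whole genome (0.22, 0.228 and 0.184 tags in lists 1, 2 and 3), the fold enrichment is set by the IP tags and has no measured denominator. The labels do not say that replicates came from separate cultures, so the spread between lists may be technical.

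**Figure D1:**
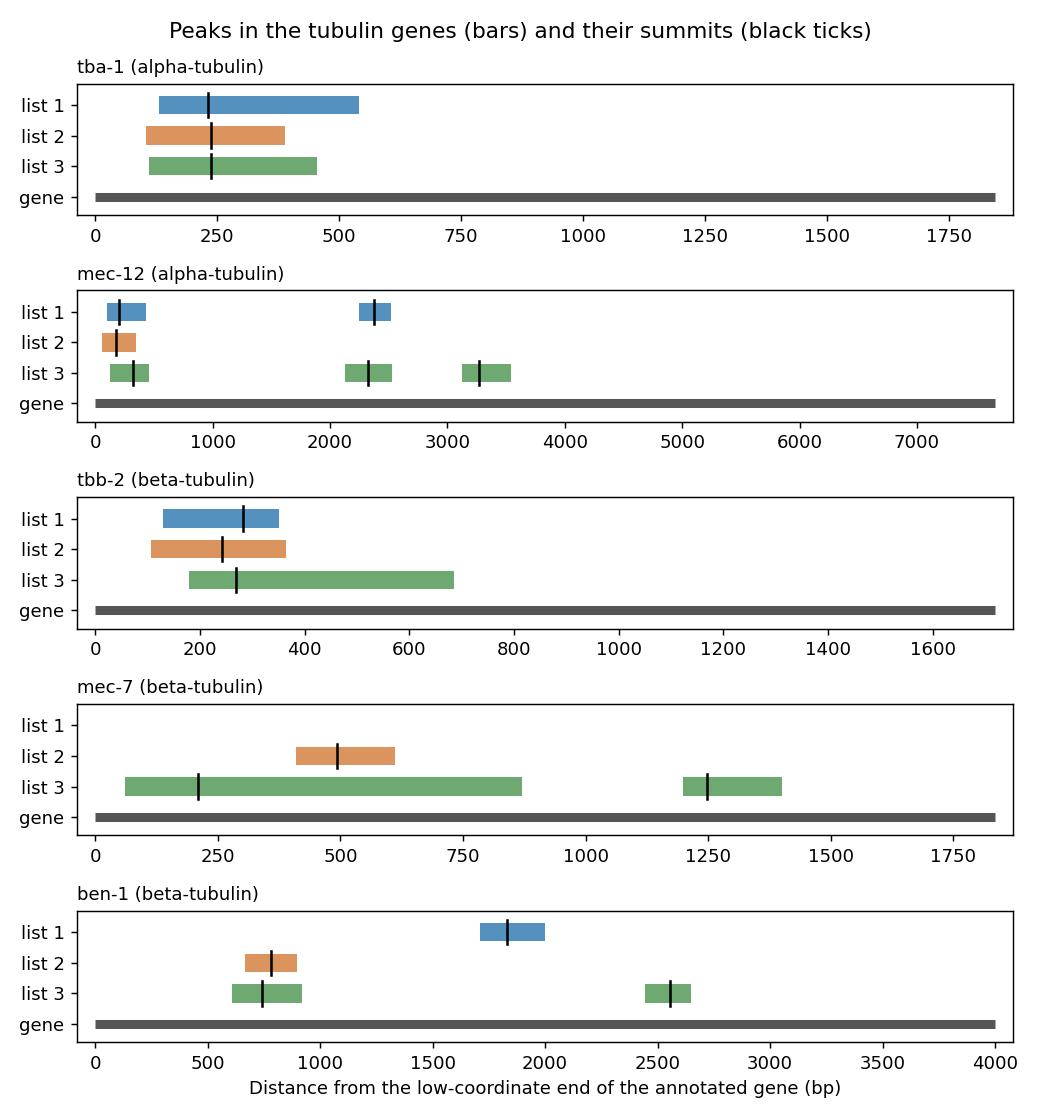
Peaks (coloured bars, lists 1 to 3) and their summits (black ticks) drawn to scale along each annotated gene (grey bar), with the distance in bp from the low-coordinate end of the gene on the horizontal axis. The summits of tba-1 lie within 7 bp of each other, mec-12 has 3 separate regions, and 17 of the 19 summits lie nearer to that end than to the other.

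Of the alpha-tubulins, tba-1 (CELE_F26E4.8, WBcel235, chromosome I, 9785781 to 9787624, 1844 bp) had a single region in all 3 lists, at 9785885 to 9786322. Its summits were covered by 20, 26 and 21 IP tags in lists 1, 2 and 3, against 2, 4 and 2 tags of the RNA inputs at the same place. Per 10000 tags of each IP library these are 5.12, 5.22 and 5.02, a mean of 5.12 ± 0.10 (SD, n = 3). The RNA inputs gave 0.55, 1.04 and 0.65 per 10000 tags. The IP coverage of tba-1 was thus nearly the same in the 3 libraries, while the input level moved by 2 tags. The authors' fold enrichment, which adds 1 to both levels, was 6.59, 4.20 and 5.47, a mean of 5.42 ± 1.19 (SD, n = 3). The ratio of the tags themselves, scaled to library size, was 9.39 (exact 95% counting interval 2.28 to 82.8), 5.0 (1.74 to 19.7) and 7.71 (1.88 to 67.8) in lists 1, 2 and 3. These intervals overlap widely and do not allow for the choice of the summit as the highest point of the IP. The summits lay at 9786012, 9786018 and 9786019, and the 3 peaks had 259 bp in common.

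The other alpha-tubulin, mec-12 (CELE_C44B11.3, chromosome III, 3131574 to 3139234), is the longest of the genes at 7661 bp and had 6 summits in 3 regions. Its first region, 3131635 to 3132031, was in all 3 lists, with 8, 8 and 6 IP tags against input at the genome-wide background in each. Fold enrichments there were 6.97, 5.83 and 4.56, a mean of 5.79 ± 1.20 (SD, n = 3). The summits spread over 148 bp, and the peaks had 221 bp in common. The list 2 peak ran into the last bases of the neighbouring gene Y53G8B.1, which ends at 3131649 by the annotation, but no summit lay in that gene.

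A further mec-12 region, 3133701 to 3134103, was separated from the first by 1669 bp and was called in lists 1 and 3, where 6 and 5 IP tags gave folds of 5.44 and 3.94. Its summits were 44 bp apart. The list 3 call had a −log10 q of 0.84, so at q of at most 0.05 this region was left in list 1 alone. The last, 3134701 to 3135116, was in list 3 alone with a fold of 5.19 from 7 tags. List 2 thus held the first of the mec-12 regions only. RNA input at all 6 mec-12 summits was at the background, so these folds follow the IP tag number. At 5 to 8 tags, an interval such as 3.45 to 15.8 for 8 tags spans the whole set of mec-12 values.

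Of the beta-tubulins, tbb-2 (CELE_C36E8.5, chromosome III, 4015910 to 4017627, 1718 bp) resembled tba-1 in having 1 region in all 3 lists, at 4016017 to 4016594. Its summits had 22, 26 and 17 IP tags, against 4, 4 and 2 RNA input tags. Per 10000 tags the IP libraries gave 5.64, 5.22 and 4.06, and the RNA inputs 1.09, 1.04 and 0.65. IP and input coverage were both lowest in list 3. Fold enrichments were 4.33, 4.20 and 4.49, and their mean of 4.34 ± 0.14 (SD, n = 3) had the smallest SD of the 5 genes. The scaled tag ratios were 5.16 (exact 95% counting interval 1.75 to 20.6), 5.0 (1.74 to 19.7) and 6.24 (1.48 to 55.7), so the close agreement of the folds is far narrower than the counting error of any of them. Summits spread over 40 bp, and 172 bp were common to the 3 peaks. In list 2, tba-1 and tbb-2 had the same 26 IP tags and 4 input tags.

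The touch-neuron beta-tubulin mec-7 (CELE_ZK154.3, chromosome X, 7774856 to 7776689, 1834 bp) was the gene with no summit in list 1. In lists 2 and 3 it had a shared region at 7774917 to 7775725, with 6 and 9 IP tags, input at the background, and folds of 4.57 and 6.43. The overlap there was loose. The list 2 peak was 201 bp wide and lay within the 809 bp peak of list 3, the widest of the tubulin peaks, and their summits were 284 bp apart. A further peak of list 3 at 7776055 to 7776256 had 3 IP tags, a fold of 2.70 and a −log10 q of 0, the weakest of the tubulin summits. With so few tags, the missing call in list 1 does not show that mec-7 RNA was absent from that IP.

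The benzimidazole target ben-1 (CELE_C54C6.2, chromosome III, 3537642 to 3541639, 3998 bp) had a summit in every list, but at changing places. Lists 2 and 3 shared the region 3538249 to 3538560, with 8 and 10 IP tags and folds of 5.83 and 7.05 over input at the background, and summits 40 bp apart. In list 1 the only ben-1 peak, at 3539352 to 3539641, lay 791 bp beyond that region and had 7 tags and a fold of 6.20. A further peak of list 3 at 3540087 to 3540288 had 4 tags, a fold of 3.32 and a −log10 q of 0. The list 3 fold of 7.05 was the highest of any tubulin summit. By the strongest peak per list, ben-1 averaged 6.36 ± 0.62 (SD, n = 3), without any region common to all lists.

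**Figure D2:**
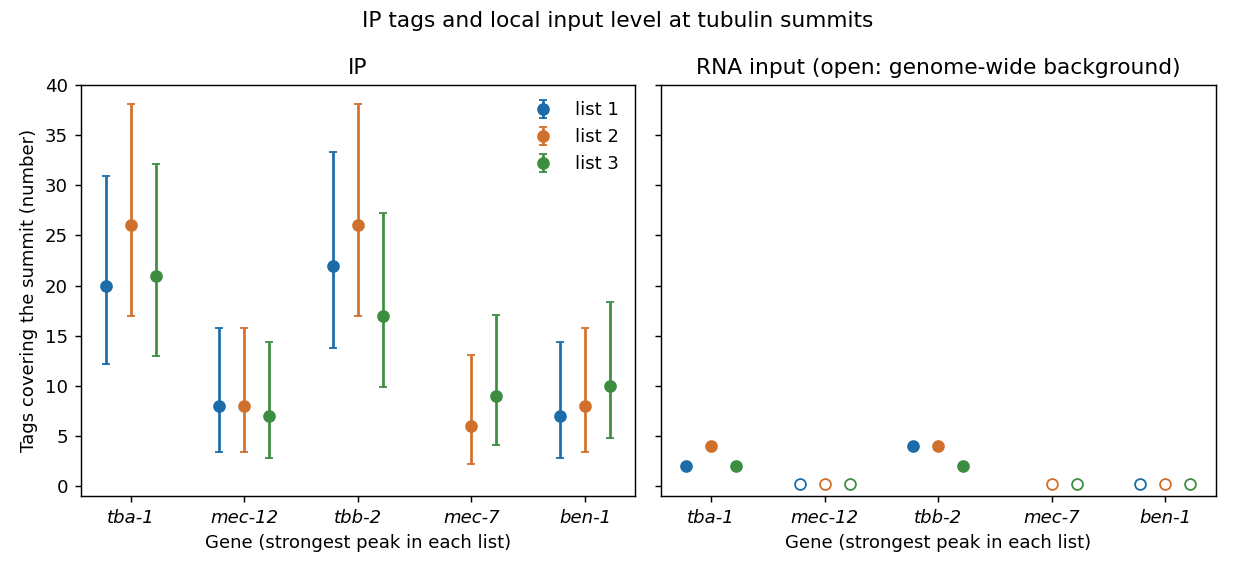
Tags covering the summit of the strongest peak of each gene in each list, for the IP (left, with exact Poisson 95% intervals) and the RNA input (right, local level, open symbols where it equals the genome-wide background). tba-1 and tbb-2 have 17 to 26 IP tags over 2 to 4 input tags, while mec-12, mec-7 and ben-1 have 6 to 10 IP tags over background input.

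The 5 genes fell into 2 kinds by their levels rather than by subunit. At tba-1 and tbb-2, all 6 summits had measurable RNA input and 17 to 26 IP tags. At mec-12, mec-7 and ben-1, all 13 summits had input at the background and 3 to 10 IP tags, and the 2 ranges did not overlap in any list. The kinds were drawn from these same values, so the gap is a description and was not tested. Among 280 summits in other protein-coding genes, 80 (28.6%) had input above background. Tag number is the coverage at 1 point, the highest of the peak, and its dependence on gene length was not tested. In whole animals, transcription in few cells and little RNA per cell give the same low input and cannot be told apart. Tubulin genes are also close relatives of each other, and how the authors placed reads that match several of them is not given in the sources used here, so tags of near-identical stretches may have been split or lost.

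Alpha- and beta-tubulin did not differ in fold enrichment by more than the spread between lists. Taking the strongest peak of each gene, alpha-tubulins averaged 6.78, 5.02 and 5.33 in lists 1, 2 and 3, and beta-tubulins 5.27, 4.87 and 5.99. Alpha was higher in lists 1 and 2 and lower in list 3. The difference, alpha minus beta, was 0.33 ± 1.1 (SD, n = 3 lists), and it changed sign to -0.26 without list 1. In list 1 beta rests on tbb-2 and ben-1, since mec-7 had no summit there. Folds of mec-12, mec-7 and ben-1 have no measured denominator. For tba-1 and tbb-2 alone, with measured input, the difference was 1.08 ± 1.13 (SD, n = 3 lists). IP tags at the strongest summits averaged 14, 17 and 14 for alpha and 14.5, 13.3 and 12 for beta. With 3 lists, 2 alpha genes and at most 3 beta genes, no test was made of a difference that the choice of genes could set.

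Touch-neuron members had fewer IP tags than the broadly expressed tba-1 and tbb-2, while ben-1 did not follow this split. The touch-neuron genes and the other 3 genes had 5 regions per group, 3 of them in at least 2 lists. In all 3 lists there was 1 region for the touch-neuron genes and 2 for the others. The touch-neuron genes mec-7 and mec-12 averaged 8.0, 7.0 and 8.0 IP tags at their strongest summits in lists 1, 2 and 3, where list 1 rests on mec-12 alone. The other 3 genes averaged 16.3, 20.0 and 16.0 tags, higher in each list. The spread among these 3 was wide, since ben-1 had 7 to 10 tags and thus sat with the touch-neuron genes. Fold enrichments averaged 6.97, 5.20 and 5.81 for touch-neuron genes and 5.71, 4.75 and 5.67 for the others. The difference of 0.62 ± 0.58 (SD, n = 3 lists) was positive in each list. It sets folds without a measured denominator at mec-7 and mec-12 beside measured ones at tba-1 and tbb-2, and was not tested. It was 1.11 ± 0.36 when ben-1 was left out, 0.16 ± 0.55 over all peaks, and between 0.30 and 0.86 when each list in turn was left out.

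**Figure D3:**
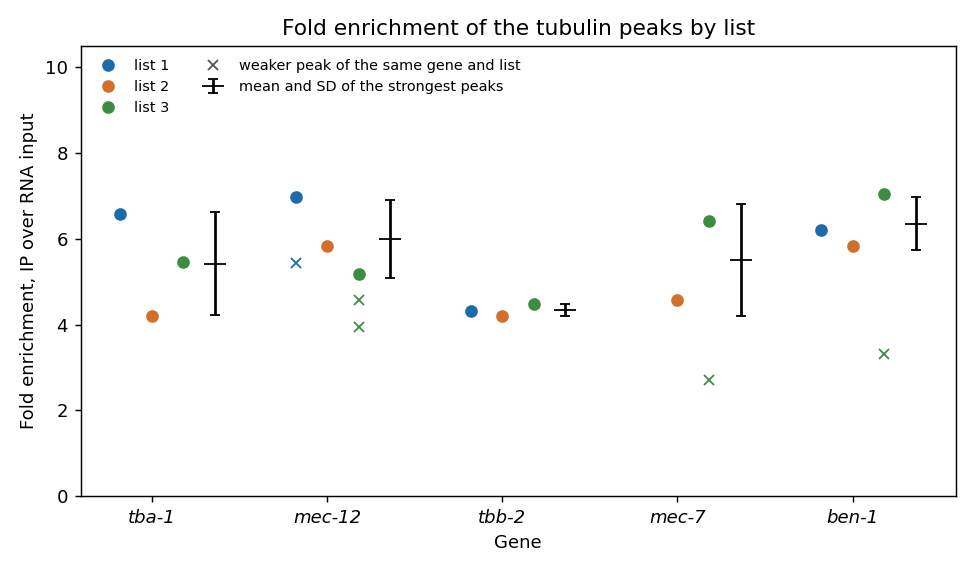
Fold enrichment of IP over RNA input for each tubulin peak by gene and list, as the authors' caller gave it, with circles for the strongest peak of a gene in a list, crosses for its weaker peaks, and black bars for the mean and SD of the strongest peaks. The strongest peaks lie between 4.20 and 7.05, and mec-7 has no value in list 1.

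Many of the tubulin summits lay near the low-coordinate end of their gene. In tba-1, tbb-2 and the first region of mec-12, all 9 summits lay 174 to 322 bp from the low-coordinate end of the annotated gene. The strongest mec-7 summit, in list 3, lay 209 bp from that end, and its list 2 summit 493 bp. The recurrent region of ben-1 lay farther in, at 743 and 783 bp, and the further mec-12 region of lists 1 and 3 lay at 2372 and 2328 bp. Of all tubulin summits, 17 of 19 (89.5%) lay nearer to the low-coordinate end of their gene than to the other, against 153 of 293 placements (52.2%) of summits in other protein-coding genes. The 17 include repeat calls of the same regions in different lists, and the exceptions were the 2 peaks with a −log10 q of 0. Over many genes the low-coordinate end mixes both ends of transcripts, so 89.5% against 52.2% does not show an unusual position. Whichever end was nearer, 11 of 19 tubulin summits (57.9%) lay within 500 bp of it, against 108 of 293 (36.9%). Gene length was not matched, and the difference was not tested. Strand and exons were not used here, so whether these places lie at the start or the end of the transcripts, or in coding sequence, introns or untranslated parts, is not given. Every tubulin summit lay in 1 annotated gene alone. The summit closest to a gene end was 174 bp inside (mec-12), and the nearest summit outside any of the 5 genes was 247088 bp away (from tba-1).

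Against the other protein-coding genes in the lists, tubulin summits were ordinary in height. Over all 19 tubulin summits the median was 8 IP tags and a fold of 5.19, against 7 tags and 4.57 at 280 other summits. RNA input was above background at 6 of 19 (31.6%), against 80 of 280 (28.6%). Ranks were taken among all summits of each list, those outside protein-coding genes included, and not among protein-coding summits alone. The median over all 459 summits was 10 IP tags. By fold, the best tubulin ranks were 34 of 109 in list 1 (mec-12), 64 of 151 in list 2 (mec-12 and ben-1) and 46 of 199 in list 3 (ben-1). The lowest was 183 of 199 (mec-7 in list 3). By IP tags, the best among all summits were 23 of 109 (tbb-2), 31 of 151 (tba-1 and tbb-2) and 35 of 199 (tba-1). Of the 132 other protein-coding genes with a summit, 52 were called in 2 or more lists, 22 of these in all 3. More than 1 region was found in 3 of the 5 tubulin genes and in 35 of the 132 others (26.5%). mec-12 and ben-1, with 3 regions each, came after mbl-1 (8), rig-6 (6) and egl-8 (5) and were level with 6 other genes.

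**Figure D4:**
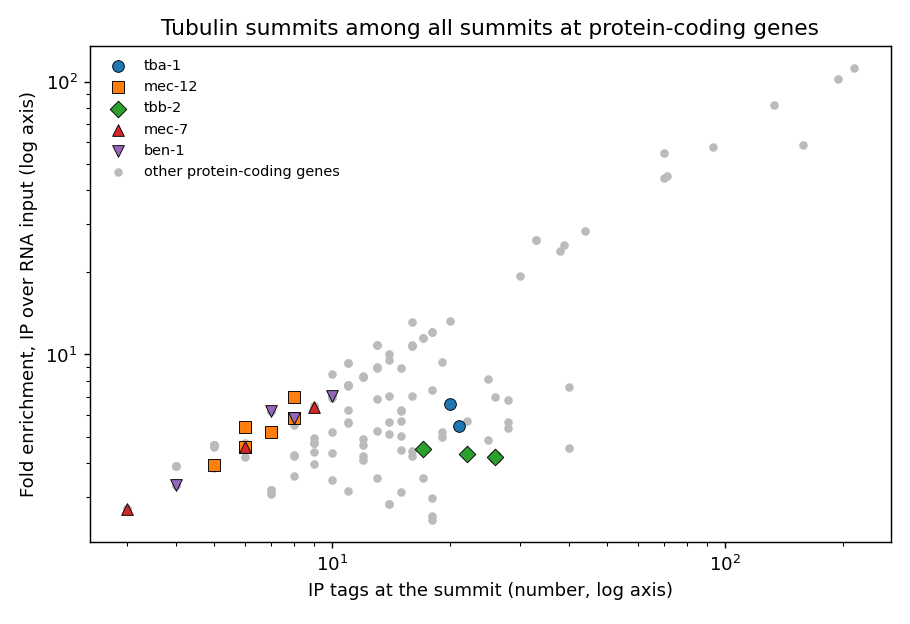
Fold enrichment of IP over RNA input against IP tags at the summit, both on log axes, for the tubulin genes (coloured symbols) and all other summits at protein-coding genes of the 3 lists (grey). mec-12, mec-7 and ben-1 lie close to the line set by background input, tba-1 and tbb-2 lie below it at 17 to 26 tags, and the list 2 points of tba-1 and tbb-2 coincide.

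The rest of the tubulin family had no peak. Of 16 annotated tubulin genes, the other 11 (the alpha-tubulins tba-2, tba-4, tba-5, tba-6, tba-7, tba-8 and tba-9, the beta-tubulins tbb-1, tbb-4 and tbb-6, and the gamma-tubulin tbg-1, which nucleates microtubules) were without a summit in any list. The nearest called peak to any of them was 48300 bp from tba-4. Peaks were thus found in 2 of 9 alpha genes and 3 of 6 beta genes, beside 0.686% of all protein-coding genes. The genes with peaks are the members, which were chosen for having them, so these counts do not measure enrichment of the family. Without the members, 0 of 7 alpha and 0 of 3 beta genes had a peak. At this depth a missing peak does not show that a transcript was not bound.

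A gene that acts on tubulin in the touch neurons was also recovered. mec-17, which encodes the alpha-tubulin acetyltransferase that modifies MEC-12 (chromosome IV, 7983802 to 7987183), had 6, 15 and 12 IP tags in lists 1, 2 and 3. Its RNA input was at the background in lists 1 and 3 and 0.40 tags in list 2. The folds were 5.44, 8.95 and 8.29, a mean of 7.56 ± 1.87 (SD, n = 3), at a single region whose summits lay 250 to 325 bp from the low-coordinate end. In lists 2 and 3 these folds were above those of every tubulin summit of the same list. Apart from mec-7 and mec-12, mec-17 was the only 1 of 15 listed touch receptor neuron genes with a summit, beside 0.686% of all protein-coding genes, and mec-2, mec-4 and mec-10, which encode parts of the touch channel complex, had none.

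Among 20 genes for tubulin folding and modification, 3 had a summit, mec-17 and the chaperonin subunit genes cct-5 and cct-7, and 2 of them in at least 2 lists. The shares over all protein-coding genes were 0.686% in at least 1 list and 0.285% in at least 2. In list 2 cct-5 had 7 tags, a fold of 3.19 and a −log10 q of only 0.048. In list 3 it had 6 tags and a fold of 4.21. The count of cct-5 in at least 2 lists thus rests on a weak call. For cct-7 the fold was 4.72 in list 1, from 9 tags. Of 28 listed genes for microtubule-associated proteins and motors, 2 had a summit, both in 2 lists. The list was not complete, and genes outside it, such as klc-2 with a summit in 1 list, were not counted. The kinesin heavy chain gene unc-116 (chromosome III, 8351164 to 8355174) had 6 IP tags in each of lists 1 and 3, with fold enrichments of 5.44 and 4.50, at summits 1459 and 1545 bp from its low-coordinate end. The spectraplakin gene vab-10 had 1 summit in list 1, with a fold of 3.38 and a −log10 q of 0, and 3 in list 2, with folds of 3.32 to 5.20.

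The genes most like each tubulin were sought among the 22 other protein-coding genes with a summit in all 3 lists, by the root mean square difference of log2 folds over the 3 lists. cmd-1, which encodes calmodulin, was closest to tba-1 (0.07), with folds of 6.23, 4.47 and 5.64 from 15, 15 and 14 tags. Next was mtpn-1 (0.18), from 6, 6 and 8 tags over background input. For mec-12 the closest were CD4.11 (0.14) and cmd-1 (0.25). Both had measured input, unlike mec-12, and CD4.11 had 25, 28 and 28 tags. The vacuolar ATPase subunit gene vha-16 (0.15) and the CaM kinase gene unc-43 (0.16) were closest to tbb-2, though both rested on 4 to 6 tags. For ben-1 the closest were C25H3.7 (0.23), with 28, 40 and 40 tags over measured input, and mtpn-1 (0.28). Likeness over 3 values describes these lists only. It uses folds alone, so genes alike by it can differ in tags and input.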

How the data were processed

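Per the labels, RNA fragments of 250 bp were copied from random primers and read from both ends for 150 nt. BWA, DiffBind, MACS2 and the genome build WBcel235 appear in the submitters' processing notes with no version. Per the file headers, each IP was compared with its own input by MACS2 2.1.0.20150420, with p at most 0.001 and 1 tag kept per position. The deposited pileup is a coverage signal of IP tags at the summit, scaled by the authors' caller to the smaller library. The deposited fold enrichment is the ratio of pileup to local input level, each with 1 added. The deposited −log10 p and −log10 q are the caller's own values; the headers state that q was not calculated, although that column holds values.

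IP tags were recovered by undoing the scaling (whole within 0.02 at 459 of 459 summits), and the input level from pileup and fold. A level within 0.01 of the genome-wide coverage was called background. The lists held 437 peaks with 459 summits. Genes came from the RefSeq gene table of the same assembly, which gives no strand, exons or sequence, so the planned motif counts and transcript positions were not made. For the comparison with other genes, summits at small structured RNA genes were left out, and a summit in several coding genes counted for each. Peaks overlapping by at least 1 bp formed a region. Samples were grouped by title, and input and IP of the same number were paired by the authors' caller.

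The members and gene lists were chosen with earlier results of these data known. Genes named are the 5 members, the other tubulin genes, genes of the related lists with a peak, and for each member in all lists the 2 most alike genes. The genes mec-2, mec-4, mec-10, Y53G8B.1, mbl-1, rig-6, egl-8 and klc-2 were named after values were seen. No test was made, because the calls chose the genes. Alternatives were stricter thresholds, other rules of overlap and naming, all peaks per gene, and leaving out each replicate. Region building and tag recovery were tested on simulated data. Scripts ran on Python 3.11.15 with pandas 2.3.3, numpy 2.4.6, scipy 1.17.1 and, for figures, matplotlib 3.10.9.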

Additional observations from a re-analysis of the deposited data

How the results depend on the processing

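The setting without ben-1 was chosen after seeing the data. At −log10 q of at least 5, 5 tubulin summits were left, 1 gene and 1 region were in at least 2 lists, and 0 genes and 0 regions were in all 3. Fewer summits pass that filter by its construction. Leaving out each replicate gave 10 to 14 summits and 3 to 5 regions in both remaining lists, lowest without replicate 3, which held the most peaks. Under q of at most 0.05, fold of at least 4 and naming by any overlap, 16 to 19 summits remained, with 5 genes in at least 2 lists and 4 in all 3. Under 50% reciprocal overlap or summits within 100 bp, 5 regions recurred in 2 or more lists, 2 of them in all 3. The alpha minus beta difference was -0.26 to 0.83 without each replicate, 0.52 over all peaks, 1.08 for tba-1 and tbb-2 alone (input above background) and 0.98 without ben-1. The touch-neuron difference could not be computed at input above background, since no such peak exists for mec-7 or mec-12. Of 26 recomputed mean folds of single genes, 9 equalled the main value by construction, and the other 17 moved by less than the gene's SD between lists. Most of these 17 left out a replicate, and dropping 1 of 2 or 3 values cannot move a mean by a whole SD. Only the means over all peaks of mec-12, mec-7 and ben-1 could have moved further. Of these, ben-1 came closest to that limit, at 5.74 against 6.36 with an SD of 0.62. Transcript positions and motif counts were not run, for want of exons and sequence in the annotation used. No paired analysis was possible because no result here comes from a test between IP and RNA input samples; the folds already pair each IP with its own input.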
